A study of Bos taurus and Sus scrofa with 6 samples.

Results

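The 5 genes of the α-arrestin family followed across the cell types of the prepubertal testis were TXNIP, ARRDC1, ARRDC2, ARRDC3 and ARRDC4. They were taken by symbol from the gene tables, where they were 5 of 19994 genes in cattle and 5 of 22694 genes in pig. The rule of choice was the symbol and not a measured value, but earlier results of these data were known when it was made. The samples were testes removed by castration from 3 cattle (Holstein, 4.5 months old) and from 3 pigs (mixed breed, 3 months old), with no treatment and no engineered allele named in the labels. Each testis was digested to single cells, and about 8000 of these were loaded for a droplet library in which every captured RNA molecule carries a unique molecular identifier (UMI). In each species 2 of the titles share a testis number but differ in the tag that follows it, and every library was treated as 1 animal, since the study's methods give 3 separate males of each species as the source of the tissue. Animals are numbered 1 to 3 here as names only. Spermatogenesis is not complete in a prepubertal gland.

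The α-arrestins share the fold of the β-arrestins and the visual arrestins, and most carry PPxY motifs in their tails, which bind the WW domains of NEDD4 family ubiquitin ligases. They act as adaptors that bring a ligase to a membrane protein, which is then ubiquitinated and taken up from the cell surface. TXNIP also binds reduced thioredoxin and promotes the uptake of glucose transporters from the surface, ARRDC1 recruits TSG101 and drives budding of small vesicles from the plasma membrane, and ARRDC3 has been linked to the integrin ITGB4. Transcription of TXNIP and of ARRDC4, its close relative, is raised when glucose is plentiful, through MLXIP or MLXIPL paired with MLX, which bind carbohydrate response elements built from paired E box-like motifs. In the testis, Sertoli cells take up glucose and supply lactate to germ cells, Leydig cells make androgens, and peritubular myoid cells, stromal cells, vessels and immune cells fill the rest of the gland.

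The pig sequences before the starts of TXNIP and ARRDC4 are given because these are the members with the shared glucose response. Each line holds the 250 bases before the gene's RefSeq start in Sscrofa11.1, read 5′ to 3′ on the strand of the gene, with every match of the E box-like motif CACGNG on either strand in capitals. TXNIP lies on chromosome 4 at 99348589 to 99351760 on the plus strand, and its upstream window is chr4:99348339-99348588. ARRDC4 lies on chromosome 7 at 81656760 to 81669584 on the minus strand, where the non-coding gene LOC106504490 overlaps it on the plus strand, and its upstream window is chr7:81669585-81669834.
TXNIP: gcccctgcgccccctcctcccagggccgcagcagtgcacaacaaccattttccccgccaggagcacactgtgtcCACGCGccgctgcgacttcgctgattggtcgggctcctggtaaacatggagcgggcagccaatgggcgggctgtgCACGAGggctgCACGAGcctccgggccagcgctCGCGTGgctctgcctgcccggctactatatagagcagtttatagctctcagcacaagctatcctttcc
ARRDC4: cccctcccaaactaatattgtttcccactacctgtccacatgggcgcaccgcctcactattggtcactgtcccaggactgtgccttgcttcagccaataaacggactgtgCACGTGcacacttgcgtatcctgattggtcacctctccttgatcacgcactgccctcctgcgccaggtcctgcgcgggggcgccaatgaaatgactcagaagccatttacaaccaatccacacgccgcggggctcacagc
The TXNIP window holds 4 matches of CACGNG, between 63 and 176 bases before the start, and the ARRDC4 window holds 1, at 135 to 140 bases. A pair of these motifs 5 bases apart (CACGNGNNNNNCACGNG, which overlaps the single motifs by its construction) lies at 85 to 101 bases before the TXNIP start. CACGNG is in 26.5% of the 20667 upstream windows of this length, while the spaced pair is in 9 of them (0.0435%). The ARRDC4 match reads CACGTG, the full E box, which is in 6.16% of windows. CCAAT on either strand is in the windows of all 5 members and in 32% of all windows. TATAAA on either strand is in 10.4% of all windows and in the TXNIP window, where the match is on the strand opposite the gene. The other members lie on chromosome 2 at 59771104 to 59778500 (ARRDC2, minus strand) and at 98430451 to 98444835 (ARRDC3, minus strand), and on an unplaced scaffold at 391610 to 408264 (ARRDC1, minus strand). A match of letters is a description of the sequence and not a binding site.

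The libraries held 5805223 to 53325608 UMIs in cattle and 6245189 to 40099873 in pig, and 3444 to 8138 cells were kept per cattle library and 2236 to 3808 per pig library. Cattle 1 and pig 1 were the shallowest, with a median of 789 and 889 UMIs per cell against 1683 to 5878 in the others. Any 2 libraries of a species shared between 8 and 61 cell barcodes. Cells were clustered with the members left out of the clustering genes, and clusters were named from marker genes, so every name carries "-like". The germ markers were highest in germ-like cells for 9 of 9 genes in cattle and 7 of 8 in pig, whereas COL1A1, COL3A1, LUM, NR2F2 and PDGFRA were highest outside the cattle stromal-like cells, leaving 2 of 7 there. A cattle dendritic-like cluster of 21 cells was led by genes that include CD79A and JCHAIN, 2 pig dendritic-like clusters by genes that include VPREB1, and these are known from B lineage cells. Of the cattle stromal-like cells, a cluster of 1171 came to 99.1% from cattle 2 and another of 1195 to 97.6% from cattle 3. The remaining cluster, of 220 cells, was led by cell division genes that include UBE2C and TOP2A, and gave 41 of the 46 stromal-like cells of cattle 1. Levels are given in CPM, UMIs per 1000000 UMIs of the summed cells of 1 type in 1 animal, for sums of at least 10 cells, and n is the number of animals. Of 27 cattle and 25 pig sums, the smallest were those of endothelial-like cells in cattle 1 and of myoid-like and lymphocyte-like cells in pig 1, and no pig 1 sum of endothelial-like cells and no pig 2 sum of lymphocyte-like cells reached 10 cells.

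TXNIP (ENSBTAG00000020060 in cattle, ENSSSCG00000031262 in pig) was low in germ-like cells of both species and high in macrophage-like, endothelial-like and, in cattle, Leydig-like cells. Cattle germ-like cells held 51.2, 31.5 and 39.4 CPM in animals 1, 2 and 3 (40.7 ± 9.90, SD, n = 3), from 203 UMIs. Cattle Leydig-like cells held 433, 284 and 754 CPM (490.5 ± 240.2, SD, n = 3). Every Leydig-like sum was therefore above every germ-like sum. Macrophage-like cells held 170.4, 642 and 576 CPM, and endothelial-like cells 177, 493 and 711 CPM, where the 177 rests on 3 UMIs. In both of these cell types the shallow cattle 1 was the lowest animal. Dendritic-like cells held 98.8, 209.9 and 272 CPM, lymphocyte-like cells 53.4, 111 and 167 CPM, and stromal-like cells 33.7, 149 and 392 CPM, where the first value rests on 2 UMIs. Sertoli-like cells held 143, 129 and 109 CPM, and peritubular myoid-like cells held 60.6, 68.3 and 82.3 CPM. The stromal-like sum of cattle 1, mostly cells of the cluster led by cell division genes, overlapped the germ-like range. The sums of the other 7 cell types lay above that range. Within Sertoli-like cells, however, a cluster of 681 cells held 33.9 CPM pooled over animals, from 71 UMIs, a level inside the germ-like range. Most of its cells came from cattle 3 (422) and cattle 2 (240), and the other Sertoli-like clusters held 128 to 145 CPM.

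Across the 9 cell types TXNIP differed in cattle (edgeR quasi-likelihood F test over all genes, adjusted p = 0.000392). It was lower in germ-like cells than in the mean of the other cell types by a log2 fold change of -3.25 (SE 0.67, edgeR adjusted p = 0.000357), where 15.2% of all tested genes were called lower. The median gene stood at +0.67 in this contrast and at +1.41 when scaled by library size alone, so TXNIP lay further below the median gene than below 0. In single pairs, germ-like cells were lower than 7 of the 8 other types, and the exception was myoid-like cells (log2 difference -1.66, SE 0.71, edgeR adjusted p = 0.0595). Leydig-like cells stood above the mean of the others by 2.05 (SE 0.42, edgeR adjusted p = 0.00139, 13% of genes called higher) and in pairs above germ-like, Sertoli-like, myoid-like and lymphocyte-like cells. Macrophage-like cells stood above the others by 1.59 (SE 0.45, edgeR adjusted p = 0.0255, 8.85% of genes called higher), a call lost without cattle 2 (1.25, edgeR adjusted p = 0.61), without cattle 3 (1.62, edgeR adjusted p = 0.115), with doublets kept (1.14, edgeR adjusted p = 0.0964) and in DESeq2 (1.45, adjusted p = 0.0523). Without cattle 2 the effect over all types was also lost (edgeR adjusted p = 0.0866), whereas the germ-like and Leydig-like calls held in all 16 alternatives. With the animal as a replicate block, endothelial-like cells were called higher (1.25, SE 0.20, edgeR adjusted p = 9.27e-09) and myoid-like cells lower (-1.35, SE 0.19, edgeR adjusted p = 9.68e-12). In the main fit neither was called, at 1.25 (SE 0.49, edgeR adjusted p = 0.18) and -1.39 (SE 0.56, edgeR adjusted p = 0.0984). Pairs of cell types were not refitted with the block or by library size alone, here or for the other members.

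In pig, germ-like cells held 41.9, 88.3 and 39.5 CPM of TXNIP (56.6 ± 27.5, SD, n = 3), from 894 UMIs. Sertoli-like cells, which were among the lower types in cattle, held 316, 479 and 446 CPM. Leydig-like cells held 577, 292 and 254 CPM. These 6 sums were all above the germ-like sums. Macrophage-like cells held 394, 1075.5 and 574 CPM, and endothelial-like cells held 929 and 452 CPM in pigs 2 and 3. Myoid-like cells held 204, 563 and 881 CPM, stromal-like cells 231, 844 and 454 CPM, and dendritic-like cells 179, 596 and 405 CPM. Pig 1 was the lowest of the 3 animals in 5 of the 7 cell types with 3 sums, and among the exceptions were Leydig-like cells, where it was the highest. Lymphocyte-like cells were listed at 0 UMIs in pig 1 and at 92.3 CPM in pig 3, from 19 UMIs, and overlapped the germ-like sums.

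TXNIP differed across pig cell types (edgeR F test, adjusted p = 0.00052) and was lower in germ-like cells than in the mean of the others by -3.01 (SE 0.55, edgeR adjusted p = 0.000101), where 11.6% of genes were called lower and the median gene stood at +0.57. Germ-like cells were lower than 7 of the 8 other types in pairs, all but lymphocyte-like cells (log2 difference -0.63, SE 0.83, edgeR adjusted p = 0.726). Without pig 3 the germ-like call was lost, at -1.48 (edgeR adjusted p = 1), and it held in the other 15 alternatives. Macrophage-like cells were called higher by 1.46 (SE 0.40, edgeR adjusted p = 0.0149, 10.2% of genes called higher; lost at a minimum of 500 UMIs per cell, 1.15, edgeR adjusted p = 0.0811, and in the finer clustering), and endothelial-like cells by 1.41 (SE 0.45, edgeR adjusted p = 0.0343, 13.5% of genes called higher). The endothelial-like call was lost in 8 of 16 alternatives, among them without pig 2 (1.05, edgeR adjusted p = 0.256), at a minimum of 500 UMIs (0.59, edgeR adjusted p = 0.661) and against the pooled sum of all other named cells (1.55, edgeR adjusted p = 0.123). Going down the order of mean levels, the step from Leydig-like to germ-like cells in pig (2.87, SE 0.61, edgeR adjusted p = 0.000964) was the step between neighbours that passed the test, and the types from endothelial-like to Leydig-like did not differ from their neighbours beyond their spread. In cattle no neighbours in the order of TXNIP levels passed, including myoid-like and germ-like cells at its lower end.

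**Figure D1:**
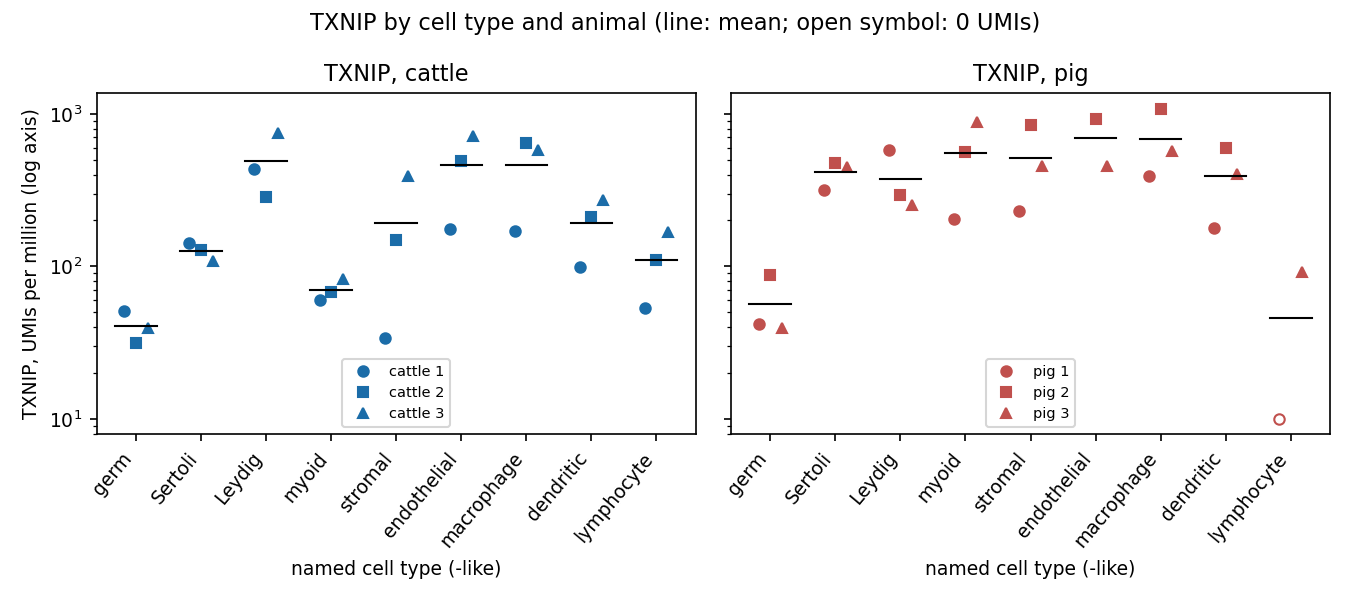
TXNIP level (CPM, log axis) in each named cell type, with 1 symbol per animal and a line at the mean; an open symbol marks a sum with 0 UMIs, drawn at the axis floor. The 3 germ-like sums sit between 31.5 and 51.2 CPM in cattle and between 39.5 and 88.3 CPM in pig, below most sums of the other cell types.

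Genes known to respond to the digestion of tissue and the depth of the cells also separated germ-like cells from the rest. The summed level of the immediate early genes (FOS, FOSB, JUN, JUNB, EGR1, ATF3, IER2 and DUSP1, in pig the 7 of them that were tested) was 164 to 348 CPM in the cattle germ-like sums and 331 to 6602 CPM in the other sums, and 161 to 580 CPM against 184 to 7746 CPM in pig. Germ-like cells were also the deeper cells, with medians of 3514 to 16908 UMIs per cell in cattle and 2811 to 14807 in pig, against 571.5 to 7026 and 820.5 to 6536 in the others. In each of the 6 animals the germ-like sum had the lowest summed level of these genes and the highest median depth. Among the other cattle types, Leydig-like cells, with the highest mean TXNIP, had summed levels of 789, 331 and 361 CPM in animals 1, 2 and 3. Macrophage-like cells, also high in TXNIP, had 3426, 3952 and 5090 CPM. Sertoli-like cells, lower in TXNIP, had 6602, 2713 and 2976 CPM. In pig, endothelial-like cells, with the highest mean TXNIP, had summed levels of 7746 and 5608 CPM in pigs 2 and 3. Pig lymphocyte-like cells, with the lowest mean TXNIP, had 184 and 418 CPM in pigs 1 and 3. Pig Sertoli-like cells, in the middle of the TXNIP order, had 4711, 4833 and 4154 CPM. The part of either in the TXNIP difference was not tested. In barcodes of at most 50 UMIs, which hold RNA free in the cell suspension, TXNIP stood at 167, 95.0 and 196 CPM in cattle 1, 2 and 3, above the germ-like level of the same animal in all 3. With 10% of every sum taken out in the proportions of such free RNA, the cattle germ-like difference was -4.21 (edgeR adjusted p = 0.000144). The pig files hold no barcodes of this kind.

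**Figure D2:**
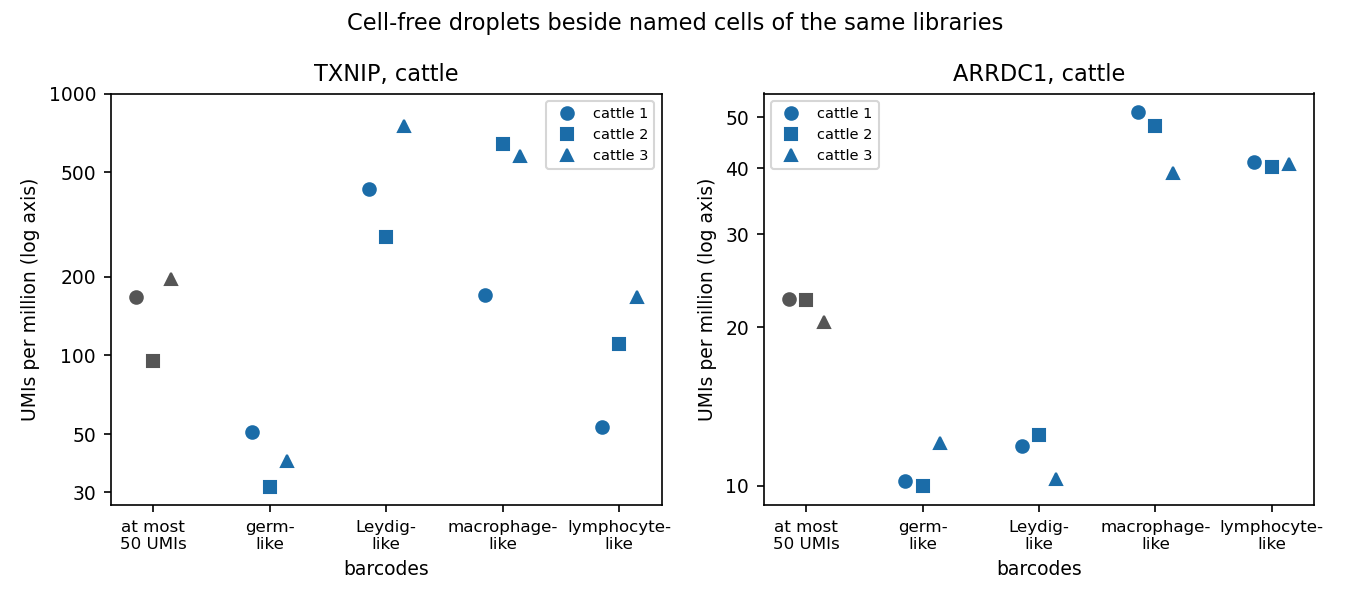
TXNIP (left) and ARRDC1 (right) in cattle (CPM, log axes that do not start at 0), in barcodes of at most 50 UMIs (grey) and in 4 named cell types (blue), with 1 symbol per animal. Germ-like sums lie below the grey points in all 3 animals for both genes, while the macrophage-like sums lie above them.

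Within pig germ-like cells the level of TXNIP was uneven. Cells of this name fell into 7 clusters, and pooled over animals TXNIP stood between 25.5 and 63.4 CPM in 4 of them. In a cluster of 214 cells whose leading genes include CLGN, PAGE4 and ELAVL2 it stood at 117, 155 and 177 CPM in pigs 1, 2 and 3, so that each animal's value there was above its own germ-like level. ARRDC4 stood at 54.5, 94.2 and 118.8 CPM and ARRDC3 at 88.0, 54.5 and 71.3 CPM in the same cluster, also above the germ-like levels of the same animals. A pair of shallow clusters made up almost wholly of pig 2 held 139 and 162 CPM of TXNIP in that animal. They rest on 39 and 41 UMIs pooled over animals. Pig 2 was the animal with the highest germ-like level, and the part of these clusters in that level was not tested. These are descriptions of clusters with no test.

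ARRDC1 (ENSBTAG00000012147 in cattle, ENSSSCG00000039824 in pig) is the member that drives vesicle budding. In cattle its mean levels were highest in immune and endothelial cell types and lowest in germ-like and Leydig-like cells. Cattle germ-like cells held 10.2, 9.98 and 12.1 CPM (10.8 ± 1.13, SD, n = 3), and Leydig-like cells held 11.9, 12.5 and 10.3 CPM (11.6 ± 1.13, SD, n = 3). Lymphocyte-like cells held 41.1, 40.2 and 40.8 CPM (40.7 ± 0.456, SD, n = 3). The 3 lymphocyte-like sums thus differed by less than 1 CPM although they rest on 10, 49 and 118 UMIs. Macrophage-like cells held 51.1, 48.0 and 39.3 CPM and endothelial-like cells 58.9, 43.5 and 36.9 CPM. The values of cattle 1 among these rest on 3 UMIs and on 1 UMI. Dendritic-like cells spread widest, at 98.8 CPM from 3 UMIs in cattle 1 and at 31.3 and 25.7 CPM in the other two. Sertoli-like cells (22.8, 20.2 and 21.0 CPM), myoid-like cells (28.8, 18.2 and 17.6 CPM) and stromal-like cells (33.7, 13.9 and 15.6 CPM) lay above the germ-like and Leydig-like sums and below the lymphocyte-like sums.

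ARRDC1 gave the smallest adjusted p of the members across cattle cell types (edgeR F test, adjusted p = 7.14e-08), and 4 of the 5 members passed this test beside 73.3% of all 14192 genes tested, a share near that background. It was lower in germ-like cells than in the mean of the others by -1.94 (SE 0.29, edgeR adjusted p = 6.52e-07) and lower than each of the 8 other types in pairs, the smallest difference being that to stromal-like cells (-1.01, SE 0.36, edgeR adjusted p = 0.0213). The germ-like call held in all 16 alternatives, at -1.22 to -2.53. In barcodes of at most 50 UMIs ARRDC1 stood at 22.7, 22.5 and 20.5 CPM, above the germ-like and the Leydig-like sums of every animal. Lymphocyte-like cells stood above the mean of the others by 1.31 (SE 0.23, edgeR adjusted p = 2.78e-05, 10.7% of genes called higher), a call lost without cattle 2 (1.24, edgeR adjusted p = 0.0564) and without cattle 3 (1.13, edgeR adjusted p = 0.124). Macrophage-like cells stood above by 1.01 (SE 0.29, edgeR adjusted p = 0.0159), a call lost in 5 of 16 alternatives, among them without cattle 2 (0.89, edgeR adjusted p = 0.463), without cattle 3 (0.94, edgeR adjusted p = 0.529) and against pooled other cells (1.12, edgeR adjusted p = 0.0539). Leydig-like cells stood below by -0.78 (SE 0.28, edgeR adjusted p = 0.0455, 5.06% of genes called lower), a call lost in 9 of 16 alternatives, among them without cattle 2 (-0.75, edgeR adjusted p = 0.425) and without cattle 3 (-0.75, edgeR adjusted p = 0.48). Among neighbours in the order of levels, lymphocyte-like cells were above myoid-like cells (1.22, SE 0.31, edgeR adjusted p = 0.00259) and Leydig-like above germ-like cells (1.03, SE 0.37, edgeR adjusted p = 0.0204). The Leydig-like and germ-like sums nevertheless overlap in CPM. Their called difference rests on the scaling of the fit, whose TMM factors were 1.39 to 1.71 in germ-like and 0.67 to 0.88 in Leydig-like sums. This pair was not refitted by library size alone. Endothelial-like and dendritic-like cells were not called against the mean of the others (0.51 and 0.69, SE 0.37 and 0.36, edgeR adjusted p = 0.647 and 0.433). With the replicate block, stromal-like cells were also called lower (-0.80, SE 0.24, edgeR adjusted p = 0.00465).

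In pig, ARRDC1 had its highest means in dendritic-like and macrophage-like cells. Dendritic-like cells held 39.8, 23.6 and 22.2 CPM (28.5 ± 9.79, SD, n = 3), macrophage-like cells 49.2, 19.8 and 15.6 CPM, and endothelial-like cells 16.4 and 15.6 CPM in pigs 2 and 3. Germ-like cells held 9.27, 6.58 and 9.89 CPM. Lymphocyte-like cells, also of the immune system, held 0 and 9.72 CPM in pigs 1 and 3, from 2 UMIs. The pig 1 sum had only 10881 UMIs, and 3 UMIs would give 13.8 CPM over that type, so this level is poorly measured. Each dendritic-like and macrophage-like sum was above every germ-like sum. The other pig types had means between 2.50 and 10.2 CPM, and 1 Sertoli-like and 2 myoid-like sums among them had 0 UMIs. ARRDC1 differed across pig cell types (edgeR F test, adjusted p = 0.000775), an effect lost without pig 3 (edgeR adjusted p = 0.0704). Dendritic-like cells were above the mean of the others by 1.70 (SE 0.41, edgeR adjusted p = 0.00209, 10.3% of genes called higher), a call lost without pig 3 (2.50, edgeR adjusted p = 0.128) and at a minimum of 500 UMIs per cell (1.05, edgeR adjusted p = 0.155). With the replicate block macrophage-like cells were called as well (1.18, SE 0.42, edgeR adjusted p = 0.0397). Pig germ-like cells stood at -0.60 (SE 0.35, edgeR adjusted p = 0.16) and were lower than dendritic-like, macrophage-like and endothelial-like cells in pairs.

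ARRDC2 (ENSBTAG00000039335 in cattle, ENSSSCG00000013893 in pig), an adaptor of the family whose cargo is less well known, was sparsely counted, with 208 UMIs over the cattle sums and 105 over the pig sums. Cattle germ-like cells held 10.2, 9.22 and 6.70 CPM, Sertoli-like cells 3.04, 0.809 and 1.81 CPM, and the 2 groups did not overlap. Lymphocyte-like cells held 4.11, 7.39 and 5.87 CPM and myoid-like cells 7.19, 4.995 and 3.54 CPM. Endothelial-like and macrophage-like cells reached 18.5 and 12.2 CPM in cattle 3 but had 0 UMIs in cattle 1. The effect over cell types passed in cattle (edgeR F test, adjusted p = 0.0158) and was lost without cattle 2 (edgeR adjusted p = 0.488), without cattle 3 (edgeR adjusted p = 0.328) and in DESeq2 (adjusted p = 0.114). Sertoli-like cells were below the mean of the others by -1.54 (SE 0.49, edgeR adjusted p = 0.015, 8.27% of genes called lower), lost without cattle 2 (-1.32, edgeR adjusted p = 0.26), without cattle 3 (-1.01, edgeR adjusted p = 1) and against pooled other cells (-1.30, edgeR adjusted p = 0.0648). In pairs Sertoli-like cells were lower than germ-like, endothelial-like, lymphocyte-like, macrophage-like and myoid-like cells.

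Pig Sertoli-like cells held 0, 0.293 and 0.908 CPM of ARRDC2, from 4 UMIs among 11477634 UMIs of that type, and germ-like cells 1.46, 0.759 and 1.38 CPM from 22 UMIs. Counts in the immune types came from pig 3, where dendritic-like cells held 15.1 CPM, macrophage-like cells 10.9 CPM and lymphocyte-like cells 14.6 CPM, while pigs 1 and 2 had 0 UMIs in the first 2 of these. The effect over pig cell types passed (edgeR F test, adjusted p = 5.43e-05, but DESeq2 adjusted p = 0.176), with Sertoli-like cells at -3.09 (SE 0.85, edgeR adjusted p = 0.00563, 4.18% of genes called lower), germ-like cells at -1.68 (SE 0.60, edgeR adjusted p = 0.0172) and dendritic-like cells at 1.94 (SE 0.61, edgeR adjusted p = 0.025). All 3 calls rest on pig 3. Without it they stood at -0.10, 1.64 and -2.41, none passing (edgeR adjusted p = 1, 0.559 and 1), and the last 2 had turned direction. Against pooled other cells none of the 3 passed (edgeR adjusted p = 0.084, 0.141 and 0.121). Without pig 2 the Sertoli-like call (-2.62, edgeR adjusted p = 0.213) and the dendritic-like call (1.60, edgeR adjusted p = 0.127) were lost. With the replicate block endothelial-like cells were called higher (1.4997, SE 0.47, edgeR adjusted p = 0.0113).

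ARRDC3 (ENSBTAG00000007116 in cattle, ENSSSCG00000014156 in pig), the adaptor linked to ITGB4, was highest in pig Leydig-like cells. These held 274, 86.2 and 97.5 CPM in pigs 1, 2 and 3 (152.6 ± 105.4, SD, n = 3), from 277 UMIs. Myoid-like cells came next with 102, 31.0 and 67.8 CPM, where the first value rests on 1 UMI, and macrophage-like cells held 98.5, 19.8 and 49.6 CPM. In each of the 3 pigs the Leydig-like sum was the highest of that animal's sums. Sertoli-like cells held 78.9, 41.1 and 44.5 CPM, stromal-like cells 77.1, 35.9 and 42.7 CPM, and germ-like cells 35.1, 34.4 and 25.0 CPM. Pig 1 was the lowest animal in 0 of 7 cell types for this gene, in contrast to its place for TXNIP. Endothelial-like cells held 36.3 and 43.2 CPM, and dendritic-like cells 24.9, 41.3 and 19.5 CPM.

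The effect over pig cell types passed for ARRDC3 (edgeR F test, adjusted p = 8.39e-06), and all 5 members passed this test beside 67.4% of the 15153 genes tested. Leydig-like cells were above the mean of the others by 2.08 (SE 0.29, edgeR adjusted p = 2.11e-07, where 10.2% of genes were called higher) and above each of the 8 other types in pairs, from 1.46 over macrophage-like cells (SE 0.46, edgeR adjusted p = 0.0191) to 2.78 over lymphocyte-like cells (SE 0.76, edgeR adjusted p = 0.012). The step down to myoid-like cells was 2.21 (SE 0.54, edgeR adjusted p = 0.00529), and no other neighbours in the order differed beyond their spread. The Leydig-like call held in all 16 alternatives, at 1.32 to 3.47. Germ-like cells stood at -0.68 (SE 0.33, edgeR adjusted p = 0.0828) and were called lower with the replicate block (-0.75, SE 0.25, edgeR adjusted p = 0.0068) and against pooled other cells (-1.85, SE 0.60, edgeR adjusted p = 0.0368).

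Cattle Leydig-like cells held 1.98, 2.08 and 1.96 CPM of ARRDC3, from 8 UMIs. Cattle macrophage-like cells held 0, 8.73 and 16.3 CPM, germ-like cells 3.41, 10.8 and 6.16 CPM, and the other types averaged 1.54 to 3.96 CPM. The effect over cattle cell types did not pass (edgeR F test, adjusted p = 0.111) but did with the replicate block (edgeR adjusted p = 0.0244) and without cattle 1 (edgeR adjusted p = 0.03). Macrophage-like cells stood above the mean of the others by 1.73 (SE 0.55, edgeR adjusted p = 0.033), a call lost in 6 of 16 alternatives, among them without cattle 2 (1.78, edgeR adjusted p = 0.207), without cattle 3 (1.26, edgeR adjusted p = 0.943) and against pooled other cells (1.74, edgeR adjusted p = 0.0621). In pairs they were above Leydig-like and myoid-like cells.

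ARRDC4 (ENSBTAG00000018252 in cattle, ENSSSCG00000002252 in pig), the glucose responsive relative of TXNIP, was the sparsest member in cattle, with 87 UMIs over 27 sums, of which 16 had a UMI. Leydig-like cells held 3.97, 8.32 and 8.34 CPM (6.88 ± 2.52, SD, n = 3) from 29 UMIs, and this was the highest mean. Sertoli-like cells held 1.52, 1.29 and 1.70 CPM, myoid-like cells 0, 0.681 and 0.8 CPM, and stromal-like cells 0, 1.60 and 0.649 CPM. The Leydig-like sums were above those of these 3 types. They overlapped the macrophage-like sums (0, 8.73 and 2.71 CPM) and the endothelial-like sums (0, 7.25 and 0 CPM), and the pair of Leydig-like and macrophage-like cells was not called (1.05, SE 0.89, edgeR adjusted p = 0.541). Germ-like cells held 0, 6.14 and 0.804 CPM, with 8 of their 11 UMIs in cattle 2, and their sums also overlapped the Leydig-like sums. Dendritic-like cells had 0 UMIs, which allows up to 5.70 CPM, and lymphocyte-like cells had 1 UMI. In barcodes of at most 50 UMIs no ARRDC4 UMI was found in any of the 3 cattle libraries.

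ARRDC4 differed across cattle cell types (edgeR F test, adjusted p = 0.000381), an effect lost without cattle 3 (edgeR adjusted p = 0.0852). Because a type at 0 UMIs makes the fitted mean of the others unreliable, Leydig-like cells were set against the pooled sum of all other named cells, a comparison chosen after the data were seen and itself prone to false calls for such genes. They were above it by 3.09 (SE 0.58, edgeR adjusted p = 0.00448). The call in the fit over all types was lost without cattle 3 (edgeR adjusted p = 0.0559) and held in the other 15 alternatives. In pairs Leydig-like cells were above germ-like (2.42, SE 0.71, edgeR adjusted p = 0.00578), Sertoli-like, myoid-like, stromal-like and lymphocyte-like cells. Of the 36 pairs of types for each gene, 180 in all, 39 passed in cattle over the 5 members, 11 of them for TXNIP, 16 for ARRDC1 and 5 for ARRDC4, beside 19.9% of pairs over all genes.

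Pig ARRDC4 was counted more often, with 1165 UMIs, and was broad. Stromal-like cells held 61.6, 53.8 and 33.1 CPM, Sertoli-like cells 15.8, 29.7 and 49.0 CPM, and Leydig-like cells 21.6, 33.7 and 25.7 CPM. Germ-like cells held 16.6, 38.7 and 30.2 CPM, myoid-like cells 0, 37.6 and 54.2 CPM, and macrophage-like cells 16.4, 15.8 and 23.8 CPM. These ranges overlap. Dendritic-like cells were lower, at 4.98, 5.91 and 13.3 CPM, but these rest on 17 UMIs, most of them in pig 3. Lymphocyte-like cells had 0 UMIs, which allows up to 13.8 CPM over that type. The effect over pig cell types passed (edgeR F test, adjusted p = 0.0122) and was lost in 6 of 15 alternatives, among them without pig 2 (edgeR adjusted p = 0.0731) and without pig 3 (edgeR adjusted p = 0.263). In the fit over all types Sertoli-like and stromal-like cells were called higher (edgeR adjusted p = 0.0108 and 0.0362), where 15.7% and 10.1% of genes were. The Sertoli-like call was lost in 8 of 15 alternatives, among them DESeq2, without pig 2 and without pig 3. The stromal-like call was lost in 10 of 16, among them DESeq2 and the fits with each pig left out in turn. Against pooled other cells neither passed, at 0.82 and 0.69 (edgeR adjusted p = 0.132 and 0.395). In pairs dendritic-like cells were below Sertoli-like (-1.54, SE 0.51, edgeR adjusted p = 0.0242) and stromal-like cells (-1.56, SE 0.55, edgeR adjusted p = 0.0394), and the other 4 called pairs of ARRDC4 were against the lymphocyte-like cells at 0 UMIs. With the replicate block germ-like cells were called higher (1.16, SE 0.52, edgeR adjusted p = 0.0485) and lymphocyte-like cells lower (-8.49, SE 2.68, edgeR adjusted p = 0.0315). Both contrasts include the lymphocyte-like cells at 0 UMIs and are therefore unreliable. Against pooled other cells germ-like cells stood at -0.07 (SE 0.36, edgeR adjusted p = 0.897). Over the 5 members 40 of 180 pairs passed in pig, beside 16% of pairs over all genes.

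**Figure D3:**
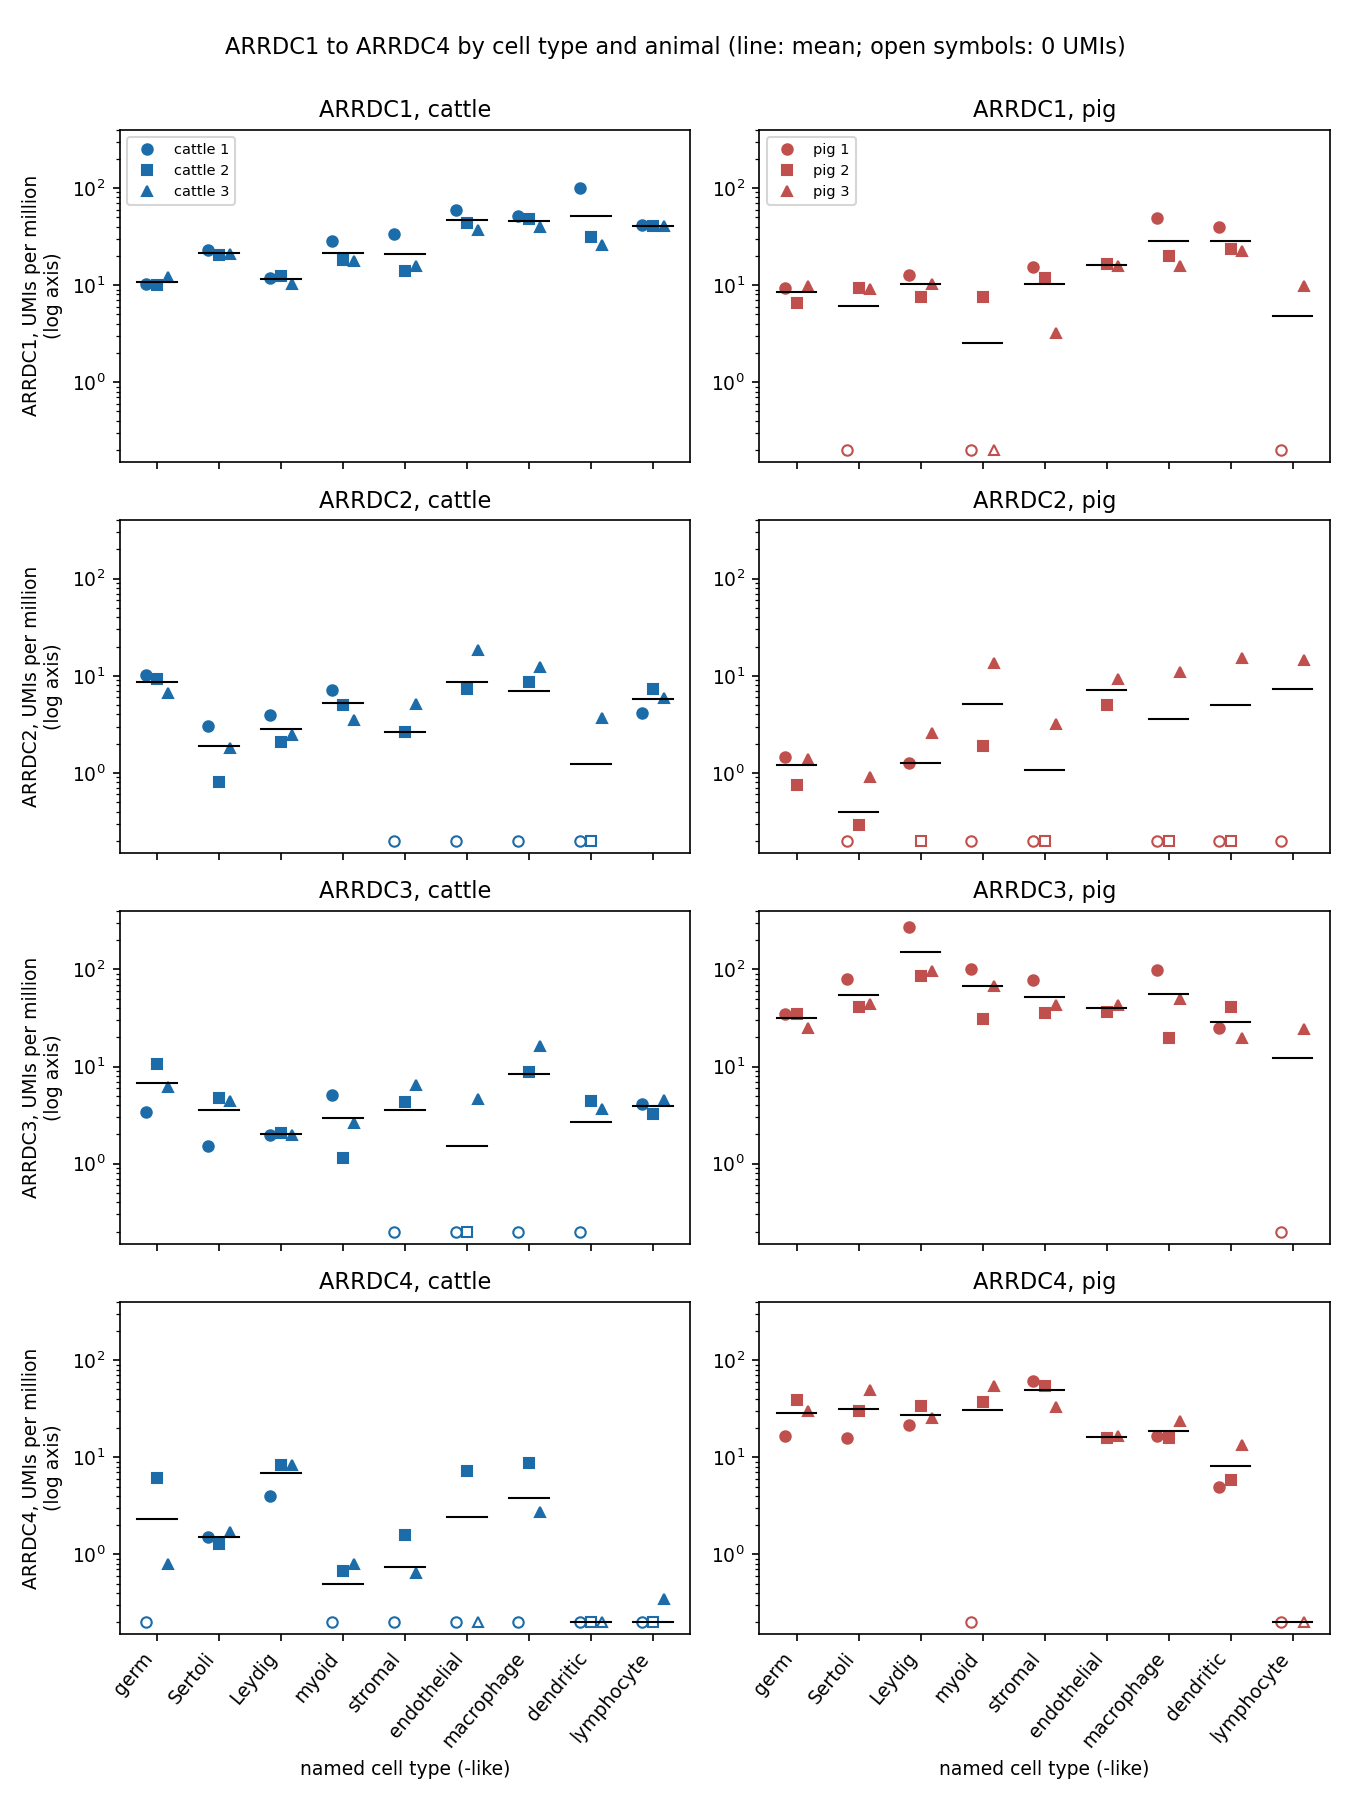
ARRDC1 to ARRDC4 (rows) in cattle (left) and pig (right), in CPM on a log axis, with 1 symbol per animal and a line at the mean of each named cell type; open symbols mark sums with 0 UMIs, drawn near the axis floor. The cattle ARRDC1 sums separate germ-like and Leydig-like from lymphocyte-like and macrophage-like cells, and the pig ARRDC3 sums are highest in Leydig-like cells.

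The contrast of a cell type with the mean of the others was compared between the species for symbols tested in both. For ARRDC4 the joint fit gave no usable difference in most types (2.30, SE 4069, in Leydig-like cells). In germ-like cells the ARRDC1 contrast was -1.94 in cattle and -0.60 in pig, and in the joint fit the difference, cattle minus pig, was -1.52 (SE 0.42, edgeR adjusted p = 0.0051), where 18.7% of 10473 symbols differed. In Leydig-like cells the ARRDC3 contrast was -0.81 in cattle and 2.08 in pig, and the difference was -2.93 (SE 0.69, edgeR adjusted p = 0.00402), where 4.23% of symbols differed. Without cattle 3 both calls were lost (-1.58, edgeR adjusted p = 0.0655, for ARRDC1 and -1.99, edgeR adjusted p = 1, for ARRDC3). The ARRDC1 call was also lost without pig 3 (-2.07, edgeR adjusted p = 0.0981), and the ARRDC3 call without pig 1 (-2.04, edgeR adjusted p = 0.0711). Set against pooled other cells, the differences were -1.21 (edgeR adjusted p = 0.106) and -2.62 (edgeR adjusted p = 0.0628). Scaled by library size alone, the ARRDC1 difference was no longer called, while the ARRDC3 difference was. With the replicate block the ARRDC2 difference in germ-like cells passed too (1.71, SE 0.64, edgeR adjusted p = 0.0322). The TXNIP contrast in germ-like cells differed by -0.43 (SE 0.74, edgeR adjusted p = 1), and its Leydig-like contrast by 1.80 (SE 0.71, edgeR adjusted p = 0.188). Levels themselves were not compared between species, since ages, gene models and libraries differ with the species and cannot be told apart.

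**Figure D4:**
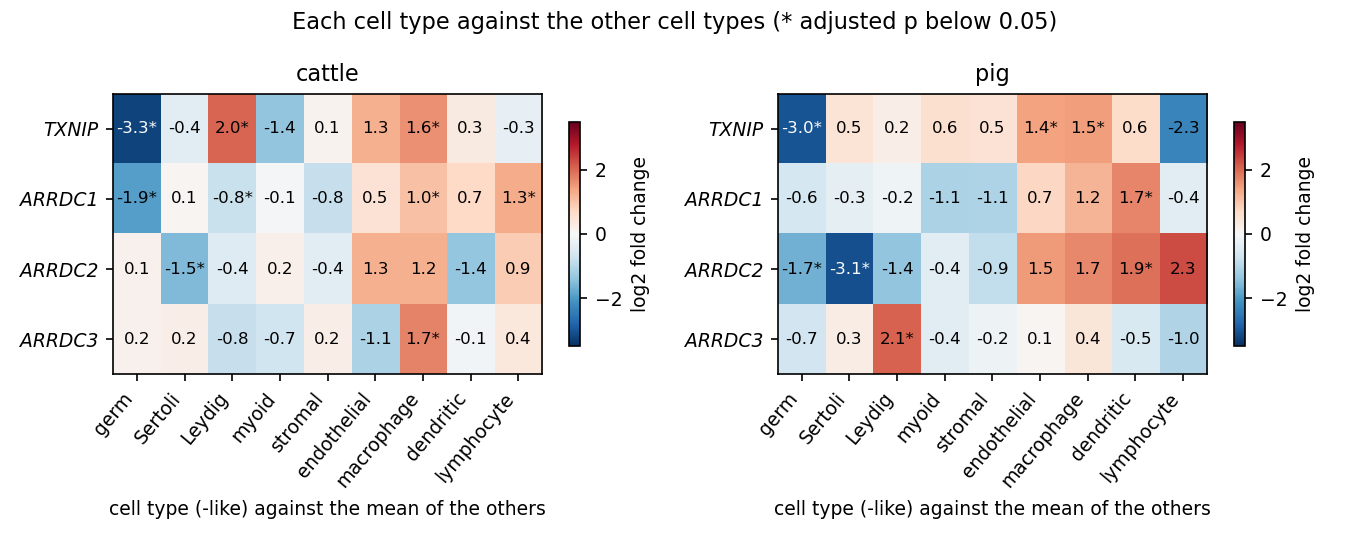
Fitted log2 fold change of each cell type against the mean of the other types for TXNIP, ARRDC1, ARRDC2 and ARRDC3 in cattle (left) and pig (right); a star marks an adjusted p below 0.05 and ARRDC4 is left out because 1 type had 0 UMIs. TXNIP is blue in germ-like cells of both species (-3.25 and -3.01), and ARRDC3 is red in Leydig-like cells of pig (2.08) but not of cattle (-0.81).

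The partners and relatives of the members were described by lists chosen with earlier results of these data known, and fits in types at 0 UMIs are unreliable for these genes as well. Over all genes, 73.3% differed across cattle types and 67.4% across pig types. In germ-like cells 39.6% and 36.3% of all genes were called higher and 15.2% and 11.6% lower. These shares stand beside the counts of every list below. Of the NEDD4 family ligases, 6 of 7 tested differed across cattle cell types and 6 of 9 across pig types. Among them NEDD4L, which ubiquitinates ion channels, was higher in germ-like cells of cattle (2.87, SE 0.33, edgeR adjusted p = 2.28e-09) and of pig (1.53, SE 0.41, edgeR adjusted p = 0.00184). WWP1 was higher in cattle germ-like cells (1.32, SE 0.35, edgeR adjusted p = 0.00249), and 3 ligases of the list were called higher there, 5 by library size alone, beside 4 in pig by either scaling. Over all genes, 5619 of 14192 (39.6%) were called higher in germ-like cells of cattle and 5497 of 15153 (36.3%) in those of pig, so the counts of the list were near the background. HECW2 was called higher in pig endothelial-like cells (6.27, SE 0.49, edgeR adjusted p = 3.02e-14). ITCH, the third named ligase in cattle, was higher in Sertoli-like cells (1.32, SE 0.30, edgeR adjusted p = 0.000678), and NEDD4 was higher in pig endothelial-like cells (1.81, SE 0.44, edgeR adjusted p = 0.0018). The median germ-like difference of the list was 0.92 in cattle and 0.61 in pig, beside 0.67 and 0.57 over all genes.

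Of the other arrestin fold proteins, 6 of 6 tested differed across cattle types and 2 of 5 across pig types, beside 73.3% and 67.4% of all genes. ARRB2, a β-arrestin of receptor desensitization, was higher in macrophage-like cells of cattle (2.26, SE 0.38, edgeR adjusted p = 1.85e-05) and pig (3.27, SE 0.29, edgeR adjusted p = 2.53e-13), and so was ARRB1 (2.24, SE 0.46, edgeR adjusted p = 0.000404, and 3.62, SE 0.28, edgeR adjusted p = 4.19e-15). VPS26B, a subunit of the retromer, was higher in cattle germ-like cells (1.10, SE 0.29, edgeR adjusted p = 0.00128). VPS26A, also of the retromer, stood at 0.76 in germ-like cells of pig (SE 0.25, edgeR adjusted p = 0.0106) although its effect over all pig types did not pass (edgeR adjusted p = 0.136). In germ-like cells 3 genes of this list were called higher and 1 lower in cattle (3 and 0 by library size alone), and 2 higher and 1 lower in pig (3 and 1). ARRDC5, the α-arrestin of the study, had 0, 2 and 1 UMIs in germ-like and 0, 7 and 6 UMIs in lymphocyte-like cells of cattle 1, 2 and 3, and 1, 0 and 1 UMIs in pig germ-like cells.

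In the thioredoxin system, which TXNIP inhibits, the peroxiredoxins PRDX2 and PRDX3 were lower in germ-like cells of both species. Of 8 genes tested, 8 differed across cattle types (73.3% of all genes), with 5 lower and 2 higher in germ-like cells (15.2% and 39.6% of all genes). Of 5 tested in pig 3 differed (67.4% of all genes), with 2 lower and 1 higher (11.6% and 36.3%). By library size alone the cattle split was 3 lower and 3 higher. PRDX3, the mitochondrial peroxiredoxin, was lower in germ-like cells of cattle (-2.75, SE 0.32, edgeR adjusted p = 2.3e-09) and pig (-2.36, SE 0.43, edgeR adjusted p = 2.72e-05) and was higher in Leydig-like cells of both (1.90, SE 0.21, edgeR adjusted p = 3.43e-09, and 3.57, SE 0.28, edgeR adjusted p = 4.57e-12). PRDX2 was lower in germ-like cells of cattle (-1.72, SE 0.25, edgeR adjusted p = 2.55e-07) and pig (-2.12, SE 0.32, edgeR adjusted p = 4.26e-07). PRDX1 stood at -0.64 in cattle germ-like cells (SE 0.23, edgeR adjusted p = 0.019) but at 0.07 by library size alone (edgeR adjusted p = 0.823). TXNRD1, a thioredoxin reductase, was higher in pig germ-like cells (0.95, SE 0.25, edgeR adjusted p = 0.00142). The list's median germ-like difference was -0.73 in cattle and -0.81 in pig.

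Of the glucose transporters and glucose sensing factors, 4 of 6 tested differed in cattle and 1 of 4 in pig, beside 73.3% and 67.4% of all genes. MLXIPL, the carbohydrate response factor, was higher in Sertoli-like cells of cattle (3.81, SE 0.95, edgeR adjusted p = 0.00223) and pig (2.91, SE 0.72, edgeR adjusted p = 0.00208). SLC2A3, a glucose transporter with high affinity, was lower in cattle Sertoli-like cells (-2.94, SE 0.63, edgeR adjusted p = 0.00034) and higher in lymphocyte-like cells (2.14, SE 0.40, edgeR adjusted p = 8.3e-05). MLX stood at -1.24 in cattle germ-like cells (SE 0.31, edgeR adjusted p = 0.000912) and was 1 of 2 genes called lower there, a call not made by library size alone (-0.50, edgeR adjusted p = 0.131). In pig, MLXIP and SLC2A8 stood at -0.20 and 1.03 in germ-like cells (SE 0.33 and 0.76, edgeR adjusted p = 0.679 and 0.277).

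Of the budding partners of ARRDC1, 4 of 5 differed in cattle and 2 of 3 in pig, beside 73.3% and 67.4% of all genes. TSG101, which ARRDC1 recruits, was higher in cattle germ-like cells (1.89, SE 0.19, edgeR adjusted p = 7.78e-11), where ARRDC1 itself was lowest, and in Sertoli-like cells (0.98, SE 0.20, edgeR adjusted p = 0.000155). CHMP4B, a subunit of the ESCRT-III filament, was called higher in cattle Sertoli-like cells (0.80, SE 0.20, edgeR adjusted p = 0.00171) and pig dendritic-like cells (1.84, SE 0.25, edgeR adjusted p = 5.33e-08). PDCD6IP, which links ESCRT complexes, was higher in cattle Sertoli-like cells (1.11, SE 0.30, edgeR adjusted p = 0.00347) and pig Leydig-like cells (0.88, SE 0.30, edgeR adjusted p = 0.0376). VPS4B stood at -0.23 in pig germ-like cells (SE 0.28, edgeR adjusted p = 0.542). In cattle germ-like cells 1 gene of this list was called higher and 2 lower, while by library size alone 2 were called higher and 0 lower.

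ITGB4, the integrin linked to ARRDC3, was higher in cattle germ-like cells (5.19, SE 0.55, edgeR adjusted p = 1.51e-09) and in pig Leydig-like (4.82, SE 0.74, edgeR adjusted p = 2.61e-06) and endothelial-like cells (4.27, SE 0.73, edgeR adjusted p = 1.22e-05). Pig Leydig-like cells were thus the type with the highest ARRDC3 level and a called ITGB4 difference. Of the glucocorticoid response genes, 3 of 5 differed in cattle and 5 of 5 in pig, beside 73.3% and 67.4% of all genes. In germ-like cells of each species 1 was called higher and 1 lower. ZBTB16, also a marker of undifferentiated spermatogonia, was higher in germ-like cells of cattle (2.98, SE 0.28, edgeR adjusted p = 1.43e-11) and pig (1.44, SE 0.33, edgeR adjusted p = 0.000285), and TSC22D3 was higher in pig Leydig-like cells (1.97, SE 0.27, edgeR adjusted p = 1.53e-07). FKBP5 was lower in cattle germ-like cells (-1.79, SE 0.45, edgeR adjusted p = 0.00105), and the receptor gene NR3C1 was lower in Sertoli-like cells of cattle (-1.40, SE 0.46, edgeR adjusted p = 0.0204) and pig (-1.33, SE 0.35, edgeR adjusted p = 0.00388).

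The immediate early genes were lower in germ-like cells, as TXNIP was. All 8 differed across cattle types and 7 were called lower in germ-like cells, 6 of them by library size alone. In pig 6 of 7 differed and 5 were called lower by either scaling. Over all genes 15.2% were called lower in germ-like cells of cattle and 11.6% in those of pig. JUN stood at -4.06 in cattle germ-like cells (SE 0.40, edgeR adjusted p = 9.57e-11) and EGR1 at -2.47 (SE 0.42, edgeR adjusted p = 8.48e-06), while ATF3 stood at -0.80 (SE 0.71, edgeR adjusted p = 0.362) there and at -2.84 in pig (SE 0.52, edgeR adjusted p = 6.24e-05). DUSP1 stood at -3.01 in pig germ-like cells (SE 0.42, edgeR adjusted p = 1.44e-07) and EGR1 at -2.37 (SE 0.56, edgeR adjusted p = 0.00151).

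Over the sums of a species, with log2(CPM + 10), the genes of at least 20 CPM on average whose levels ran most like those of a member were found by Pearson's r. These correlations span sums that share libraries and cell types and are given as a description. For TXNIP they were PDK4 (r = 0.81 over 27 sums), a kinase that holds back glucose oxidation, with DAZAP2 and GBP4 in cattle, and ITM2B (r = 0.868 over 25 sums), CLTB, a clathrin light chain, and the immediate early gene FOS (r = 0.857) in pig. For ARRDC1 they were TMSB10 (r = 0.844), ACTB and TSPO in cattle and MFSD5 (r = 0.85), UVRAG and SKAP2 in pig. For ARRDC3 they were STK4 (r = 0.752), C1orf131 and TRIM25 in cattle and PSME4 (r = 0.849), ENSSSCG00000025525 and TMEM205 in pig, the last 3 highest in Leydig-like cells as ARRDC3 was. For ARRDC4 they were SCARB2 (r = 0.718), MYOF and NDUFC1 in cattle, all highest in Leydig-like cells, and SPART (r = 0.915), MAPKAPK5 and CTSV in pig. For ARRDC2, the sparse member, they were SDCBP (r = 0.752), ANKRD26 and RBPJ in cattle and RSAD2 (r = 0.772), ISG15 and ENSSSCG00000022912 in pig, of which RSAD2 and ISG15 are interferon response genes. Between the members, TXNIP and ARRDC4, whose upstream sequences stand above, had r = 0.464 in cattle and 0.407 in pig. The highest value between members was 0.592 for ARRDC2 and ARRDC3 in cattle, where many sums of both are near 0 UMIs, and 0.458 for ARRDC3 and TXNIP in pig.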

How the data were processed

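Droplet libraries of 3 cattle and 3 pig testes were analysed from the deposited UMI counts per gene and barcode, which the authors made with Cell Ranger 2.1.0 on ARS-UCD1.2 and Sscrofa11.1, per the labels; the headers of the pig matrices name a later version. The cattle files hold all barcodes and the pig files hold called barcodes. Barcodes were kept above the 99th percentile of the 3000 largest divided by 10 and with at least 200 genes, and the highest Scrublet scores (0.8% per 1000 cells) were removed as doublets. Cells were clustered per species in scanpy 1.11.5 (Leiden with igraph 0.11.9, resolution 1, 2000 variable genes without the members, 30 components, 15 neighbours). Clusters were named where at least 3 markers were 2 times the median cluster, with 10 CPM added, and in 5% of cells, at a mean log2 fold of at least 1.2, a rule set after the clusters were seen. Clusters without a name stayed out of the comparisons.

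Counts were summed per animal and named cell type (at least 10 cells, types with sums in at least 2 animals) and fitted with edgeR 4.0.16 in R 4.3.3 (quasi-likelihood, TMM, genes with at least 10 counts), on all sums of a species, since they share 1 estimate of the spread. Each type was compared with the unweighted mean of the others and with each other type, and the contrast between species used symbols tested in both. P-values were adjusted over all genes of a contrast (Benjamini-Hochberg, threshold 0.05), and not over contrasts. The members and lists were chosen with earlier results of these data known. List genes named are the 3 of each list with the smallest adjusted p across cell types. Alternatives were library size scaling, DESeq2 1.42.0, count filters of none or 50, other cell minima, doublets kept, Leiden resolutions of 0.5 and 2, subtraction of free RNA, the animal as a replicate block and each animal left out; pooled other cells, sums of at least 100000 UMIs and another name for a pig cluster were added after the data were seen. The block is set by the design, since sums of 1 animal come from 1 library: deviations from the type means correlated within animals with a median r of 0.397 in cattle (lowest 0.114) and 0.451 in pig (lowest 0.227), and between animals at -0.242 and -0.233. Counts were simulated for the germ-like contrast with a fixed dispersion and no animal effect, unlike the sums of these data, which correlate within animals. Of the calls for genes with a type at 0 UMIs, 25.3% were false in cattle and 40.7% in pig. For genes with 1 to 9 UMIs in their lowest type the shares of calls were 4.76% and 8.19%, and for those with 10 or more 2.33% and 1.42%. In the last class 96% and 100% of 4-fold changes were found, but only 18.7% and 31.6% of 2-fold changes. For the 1 to 9 class 13% and 23.7% of 2-fold changes were found, so a contrast not called can still hold a difference of that size. In the pooled comparison the false shares of calls were 14.3% and 7.25% for genes with a type at 0 UMIs, and 18.7% and 5.04% for the 1 to 9 class. TXNIP and cattle ARRDC1 fall in the class of 10 or more, but these shares hold for the simulated setting only. A gene of the lists is not reported here.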

Additional observations from a re-analysis of the deposited data

Results flagged for a closer look

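The contrast of ARRDC1 in germ-like cells differed between the species in the test of the difference itself, at -1.52 on the log2 scale for cattle minus pig, and that of ARRDC3 in Leydig-like cells at -2.93. The ARRDC1 difference was not called by library size alone. The standard errors, adjusted p-values and the animals that both rest on are given with the comparison of the species. Groups of 3 animals were not tested for outliers.

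Cells that no comparison used also held the members, above the level that 3 UMIs would give. Unnamed cattle cells (149 cells, 420649 UMIs) held 9.51 CPM of ARRDC1, from 4 UMIs, and 249.6 CPM of TXNIP. The 17 pericyte-like cells of pig, which reached 10 cells in 1 animal, held 839 CPM of TXNIP from 53 UMIs. Unnamed pig cells (1475 cells, 2847031 UMIs) held 11.2 CPM of ARRDC1, 5.97 CPM of ARRDC2, 33.4 CPM of ARRDC3, 15.1 CPM of ARRDC4 and 314 CPM of TXNIP. TXNIP was uneven among them. Unnamed pig clusters of 93, 25 and 11 cells held 46.7, 70.7 and 49.0 CPM, within the range of the pig germ-like sums, while others held up to 1150 CPM. In 1 unnamed pig cluster of 1114 cells 95.4% came from pig 1. Its best class by markers was Sertoli, and it held 1063 cells of pig 1, beside 106 in the Sertoli-like sum of that animal. Pooled over animals it held 245 CPM of TXNIP, 12.5 of ARRDC1, 30.3 of ARRDC3 and 8.92 of ARRDC4. With this cluster named Sertoli-like, the 10 pig calls of a cell type against the others stayed the same.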

How the results depend on the processing

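Over 32 single results and their alternatives, 403 of 505 values kept direction and side of the threshold, 96 fell below it, 4 rose past it and 2 turned direction: with a pig left out, ARRDC2 stood between -2.41 (without pig 3) and 2.21 in dendritic-like cells and between -2.00 and 1.64 (without pig 3) in germ-like cells. Counts of calls over the members stayed within 1.5 times in 88 of 113 values. The cattle count of members that differed across cell types (4) was 2 to 5 with an animal left out, the calls above the other types (6) were 1 to 7 and 3 with doublets kept, and the calls below them (4) were 2 to 6. In pig the count of members (5) was 3 in DESeq2 and 3 to 5 with an animal left out. The pig calls above (7) were 4 in DESeq2 and at Leiden resolution 2, 3 at a minimum of 500 UMIs and against pooled other cells, and 3 to 6 with an animal left out. The pig calls below (3) were 5 with no count filter, with the replicate block and at Leiden resolution 0.5, and 0 to 6 with an animal left out: edgeR called 0 without pig 3, where 1 passed at an unadjusted p, and DESeq2 called 2 with all animals. Differences between species (2) were 4 with doublets kept, 4 over sums of at least 100000 UMIs, 1 against pooled other cells and 0 to 2 with an animal left out, with 0 in edgeR without cattle 3, where 4 passed at an unadjusted p (DESeq2 with all animals: 3). The 1 call against pooled other cells was ARRDC4 in Leydig-like cells, which the main joint fit could not compare. It was also called in DESeq2, at a minimum of 500 UMIs or 500 genes, at Leiden resolution 2, with doublets kept and over sums of at least 100000 UMIs. The cause of these shifts was not tested. Where leaving out an animal left a type with 1 sum, that sum was assumed to vary like the rest. Beyond the calls given in the report, the replicate block changed none for the members over cell types, against the other types or between species. Pairs of cell types and list genes were not refitted with the block.

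Scaling by library size alone moved the share of higher calls over all genes by more than 10 points. In cattle it went from 76.7% to 94.3% in endothelial-like, 72.3% to 86.8% in germ-like, 72% to 41.1% in Leydig-like, 64.9% to 36.2% in lymphocyte-like and 71.6% to 58.1% in Sertoli-like cells. In pig it went from 85.1% to 66.3% in dendritic-like and from 87.8% to 66.8% in macrophage-like cells. Depth limits ARRDC2, ARRDC3 and ARRDC4 in cattle, with 87 to 224 UMIs over all sums, and ARRDC2 in pig, with 105. UMI sums and limits cover counting error only.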
